A study of Homo sapiens with 6 samples.

Results

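The genes described here are those of the LIN28 and IGF2BP oncofetal axis: the RNA-binding proteins LIN28A and LIN28B, the 3 IGF2BP paralogs, the chromatin protein HMGA2, and DICER1, TUT4, TUT7 and DIS3L2, which make, tail or degrade let-7 precursors. They are 10 of the 61267 genes in the table. They were chosen because LIN28B was abundant in the libraries labelled NC and had no count in those labelled KD, so their levels in KD and NC are given as a description. Counts of members past a test stand beside the share of all genes that passed, and support nothing.

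LIN28 proteins bind precursors of the let-7 microRNA family and keep them from maturing. TUT4 and TUT7 add uridines to the bound precursor, and the exonuclease DIS3L2 degrades the tailed RNA, while DICER1 cuts the precursors that escape into mature let-7. Mature let-7 in turn represses transcripts with matching sites in their 3′ UTRs, among them LIN28B, HMGA2 and IGF2BP1. LIN28B, IGF2BP1 and IGF2BP3 are known as oncofetal genes, active in embryonic tissue and in many tumours and low in most adult tissue.

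RNA was sequenced from THP-1, a line of human monocytic leukemia cells. All cultures had received PMA (100 ng/ml, 48 h), a phorbol ester that turns these cells into adherent macrophage-like ones. There were 3 libraries labelled NC and 3 labelled KD, and the labels give neither the target of KD nor the way it was applied. The series title names METTL1, an enzyme that places 7-methylguanosine in RNA. The labels do not tell whether replicate libraries stem from different cultures, so errors and p-values describe the spread among libraries, which may be technical.

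Total counts ran from 37628972 to 42970216 per library. METTL1 had 596, 653 and 642 counts in NC and 567, 528 and 524 in KD, and its log2 fold change was -0.10 (SE 0.076, edgeR adjusted p = 0.216), which is not past the threshold of 0.05. It passed as lower with library sizes alone (-0.29, adjusted p = 0.00249) and on a scale set by leukocyte-restricted genes (-1.39, adjusted p = 8.78e-15). As the METTL1 call depends on the scaling, directions below compare the library labels KD and NC. Among all tested genes, 36.2% were higher in KD and 40.3% lower, and the marker counts that follow are to be set against these shares. Of 46 genes restricted to leukocytes, 45 were higher in KD and 0 lower. Their summed level was 4629 to 4844 CPM (counts scaled to library size) in NC and 12060 to 12400 in KD. Of 13 tested neuronal and HEK293-type markers, 13 were lower in KD: their sum was 1924 to 2283 CPM in NC and 28.0 to 31.1 in KD. In KD, ID4, POU3F3 and ZCCHC12 had no count, nor did STMN2, which was not tested and had 8 counts over all NC libraries. The corresponding sums were 619 to 664 and 18.2 to 19.9 CPM for epithelial markers (7 of 9 tested lower, 1 higher) and 575 to 606 and 1052 to 1061 CPM for monocyte and macrophage markers (10 of 11 higher, 0 lower). Fibroblast markers summed to 29.1 to 30.9 and 104 CPM (2 of 4 higher, 2 lower), and lymphoid markers to 2.88 to 4.51 and 5.79 to 6.58 CPM (1 of 3 higher, 1 lower). The markers of the labelled monocytic cell were thus present in all 6 libraries. By their sums, neuronal, HEK293-type and epithelial markers were present mainly in NC, though not each marker was. The log2 fold changes of BEX1 (-0.72) and ENO2 (-0.42) were small, KRT19 did not differ (0.0038), and CLDN7 was higher in KD (1.17). These marker levels move with every difference below, and their part in the results was not tested. In RNA from whole cultures, fewer cells of a type and less RNA per cell cannot be told apart.

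MicroRNAs of the let-7 family share a seed, bases 2 to 8 of the mature microRNA. It is shown here in capitals for those found in the RefSeq table (GRCh38.p14).
let-7a-5p: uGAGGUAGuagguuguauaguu
let-7b-5p: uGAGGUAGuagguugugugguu
let-7c-5p: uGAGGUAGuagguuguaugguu
let-7d-5p: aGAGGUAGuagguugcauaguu
let-7e-5p: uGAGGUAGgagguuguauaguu
let-7f-5p: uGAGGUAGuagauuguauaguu
let-7g-5p: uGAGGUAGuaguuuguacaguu
let-7i-5p: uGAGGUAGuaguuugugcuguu
miR-98-5p: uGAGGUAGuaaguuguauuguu
All 9 names carry the same seed, which only 11 of 2370 mature entries in the table hold, and they differ outside it. The precursors are less alike in the stretch that LIN28 is known to read. Of 11 let-7 family hairpins with both arms in the table, 8 hold GGAG, the tetramer that the LIN28 zinc knuckles bind, between the arms, against 56 of 728 other hairpins (7.69%). The hairpins of let-7a-3, let-7b and miR-98 do not hold it there. A contrast of the kinds is given by let-7g (chr3:52268278-52268361, minus strand), let-7a-1 (chr9:94175957-94176036, plus strand) and let-7b (chr22:46113686-46113768, plus strand), with the seed and GGAG in capitals.
pre-let-7g: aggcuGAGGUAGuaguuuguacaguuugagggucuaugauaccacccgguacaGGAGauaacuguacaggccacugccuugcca
pre-let-7a-1: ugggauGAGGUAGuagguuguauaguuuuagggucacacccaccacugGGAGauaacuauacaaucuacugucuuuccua
pre-let-7b: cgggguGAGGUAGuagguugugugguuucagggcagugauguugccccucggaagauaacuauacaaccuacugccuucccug

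Complements of the seed, CTACCTC in capitals below, were searched on the transcript strand in the 3′ UTRs of GENCODE release 29 (GRCh38), in the principal transcript of each gene. Of 19101 genes with a 3′ UTR, 1638 (8.58%) held at least 1 such site. LIN28B, HMGA2 and IGF2BP1 held 4 each, and LIN28A, IGF2BP2 and IGF2BP3 held 1 each. DICER1, TUT4, TUT7 and DIS3L2 held none. Windows of 22 bases ending with the site show the letters for the members the results turn on.
LIN28B site 1: acccggttgcaaagtCTACCTC
LIN28B site 2: tactgatgatagtaaCTACCTC
LIN28B site 3: gtttacagcaaaaggCTACCTC
LIN28B site 4: aaatgatggtgttgaCTACCTC
HMGA2 site 1: gccaacgttcgatttCTACCTC
HMGA2 site 2: ccccactactcaataCTACCTC
HMGA2 site 3: ttgacttgcaaagacCTACCTC
HMGA2 site 4: aatcaaaacacactaCTACCTC
IGF2BP1 site 1: tgtgtgcgaagtaaaCTACCTC
IGF2BP1 site 2: cagcagtgctagtaaCTACCTC
IGF2BP1 site 3: gtataaatggattaaCTACCTC
IGF2BP1 site 4: tcacttttgttttatCTACCTC
IGF2BP2 site 1: aacacacagaagaagCTACCTC
IGF2BP3 site 1: tgcatttttactcaaCTACCTC
The sites of LIN28B began at positions 44, 2471, 2653 and 4092 of its 3′ UTR, counted from the first base after the stop codon, and those of HMGA2 at 21, 1256, 1668 and 2521. The site density was 1.33 per kb in HMGA2, 0.879 in LIN28B and 0.645 in IGF2BP1, against 0.0621 over all genes. These genes are named above as known let-7 targets, so nothing is read from the excess. Longer 3′ UTRs held a site more often: among genes with a 3′ UTR of similar length, 14.8% held a site beside HMGA2, 23.5% beside LIN28B and 29.8% beside IGF2BP1. A match is a description of the letters, and binding was not measured.

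LIN28B (chr6:104936616-105083332, plus strand, GRCh38, as for all gene positions below) was high in every NC library and without a count in every KD library. Its counts in NC were 3783, 3399 and 3910, or 89.7, 82.9 and 86.5 CPM after TMM scaling (86.4 ± 3.41, SD, n = 3). Counts were 0 in KD 1, KD 2 and KD 3, and 3 counts over the group, the limit a count of 0 allows, correspond to 0.0254 CPM. LIN28B was therefore at least 3400-fold lower in KD, or at least 1700-fold lower if each count is taken as 1 read of a pair. These bounds cover counting error only. Per length LIN28B stood at 41.2 to 43.7 TPM (counts per exon base, scaled within each library) in NC, with a mean of 42.3, the third highest of the members there.

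LIN28A (chr1:26410817-26429728, plus strand), the paralog of LIN28B that acts in pluripotent cells, was barely detected. It had 8, 0 and 0 counts in NC and 1, 0 and 0 in KD. The ratio of the summed levels, NC over KD, was 7.36 with an exact 95% interval of 0.986 to 326, the groups overlapped, and the gene did not pass the filter on low counts. The interval takes counts as independent, though all 8 NC counts came from 1 library, so it is too narrow. LIN28B thus made up nearly all LIN28 RNA in the NC libraries.

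**Figure D1:**
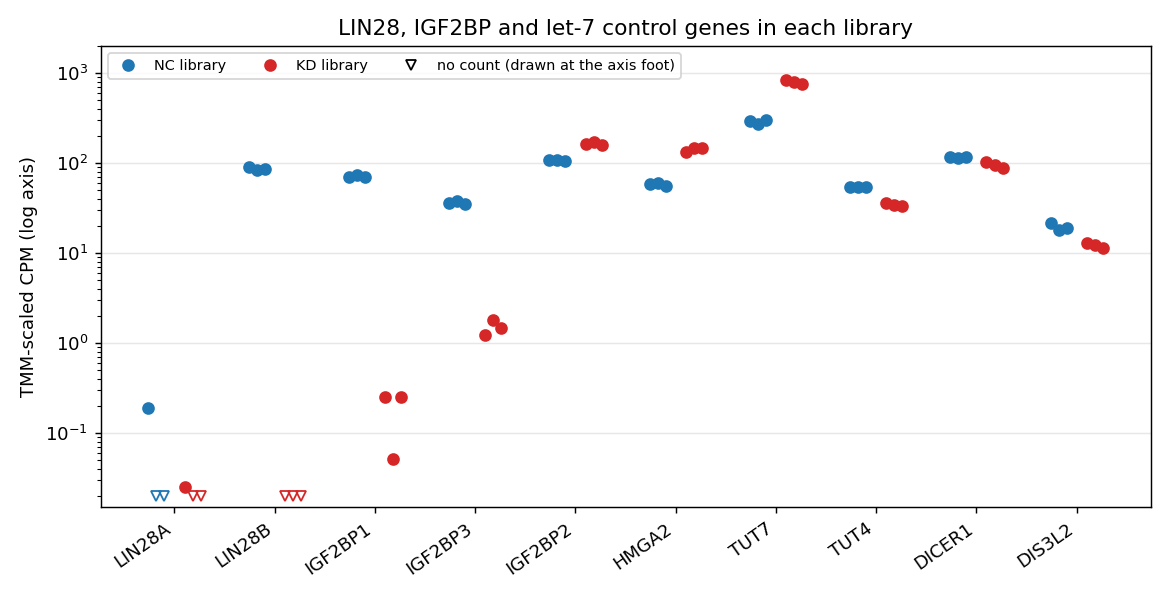
TMM-scaled CPM (log axis) of the 10 genes in each of the 3 NC and 3 KD libraries, 1 point per library, with open triangles at the foot of the axis for libraries without a count. LIN28B has no count in KD, IGF2BP1 and IGF2BP3 lie far lower in KD than in NC, and the groups of all genes but LIN28A are separate.

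The 3 IGF2BP paralogs, which bind mRNAs, protect them from decay and guide their transport, did not move as one. IGF2BP1 (chr17:48997385-49056145, plus strand) had 2937, 2993 and 3124 counts in NC and 10, 2 and 10 in KD. That is 70.6 ± 2.10 CPM against 0.186 ± 0.117, a log2 difference (KD over NC) of -8.54 with an SE of 0.13. IGF2BP3 (chr7:23310209-23470491, minus strand) stood at 36.4, 37.6 and 34.7 CPM in NC and at 1.22, 1.79 and 1.47 CPM in KD. It had 48, 70 and 58 counts in KD, some of which may be reads of MALSU1, a gene that overlaps it on the other strand, and its log2 difference was -4.60 (SE 0.099). IGF2BP2 (chr3:185643130-185825042, minus strand), the paralog that stays active in many adult tissues, was higher in KD: 109, 107 and 105 CPM in NC against 165, 170 and 160 in KD, a log2 difference of 0.62 (SE 0.041). The direction for IGF2BP2 held with library sizes alone (0.43) and turned on a scale set by the 46 leukocyte-restricted genes (-0.67).

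Taken per exon base, IGF2BP2 was the main paralog in both groups, and in KD almost the sole one. It made up 63.5% ± 0.704 of the summed IGF2BP TPM in NC and 99.4% ± 0.0682 in KD (SD, n = 3 each). The share of IGF2BP1 was 23.1% ± 0.499 in NC and 0.0629% ± 0.0402 in KD, and that of IGF2BP3 was 13.4% ± 0.292 and 0.561% ± 0.0959. The sum of the 3 paralogs was 92.5, 94.9 and 89.3 TPM in NC and 84.2, 87.5 and 83.0 in KD, with every NC library above every KD library. The shares do not depend on how libraries are scaled to each other, but the sum does: on the leukocyte scale all 3 paralogs were lower in KD, with log2 differences of -0.67 for IGF2BP2, -9.82 for IGF2BP1 and -5.89 for IGF2BP3.

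**Figure D2:**
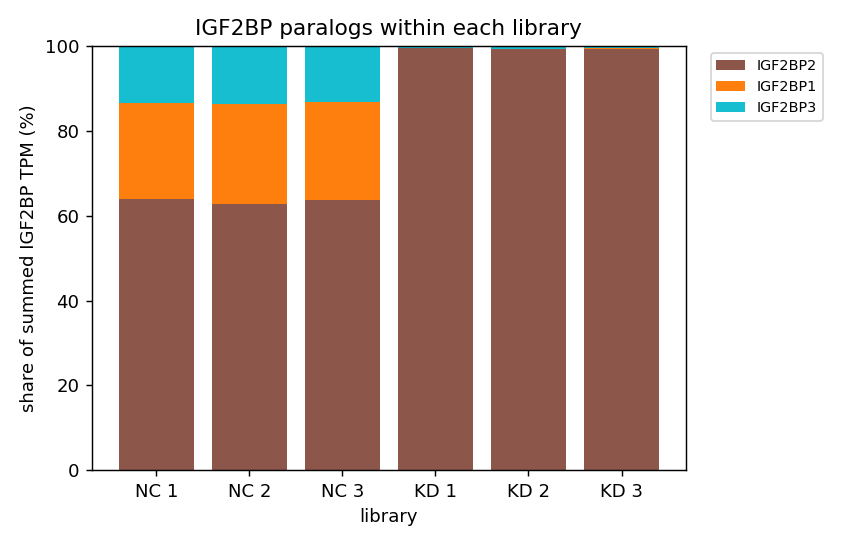
Share (%) of each paralog in the summed IGF2BP TPM, 1 bar per library, for 3 NC and 3 KD libraries. IGF2BP2 holds 62.7% to 64.0% in NC and 99.3% to 99.5% in KD, where the shares of IGF2BP1 and IGF2BP3 are below 1%.

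HMGA2 (chr12:65824460-65966291, plus strand), an architectural chromatin protein and classic let-7 target, was higher in KD with TMM. Its levels were 58.2, 59.8 and 55.2 CPM in NC and 133, 145 and 146 CPM in KD, with no overlap. The log2 difference was 1.29 (SE 0.046), it was 1.11 with library sizes alone, and it was 0.01 (SE 0.047) on the leukocyte scale. Of the 3 members with 4 let-7 sites each, HMGA2 was the one that was not lower in KD. Within a library, HMGA2 per exon base was 0.0296 ± 0.00102 times its relative HMGA1 in NC and 0.0331 ± 0.000596 times in KD, a 1.12-fold difference.

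The uridylyltransferases TUT7 and TUT4, which tail let-7 precursors and act in part redundantly, differed in opposite directions. TUT7 (chr9:86287733-86354454, minus strand) stood at 297, 275 and 302 CPM in NC and at 844, 798 and 751 CPM in KD, a log2 difference of 1.45 (SE 0.049) and the largest upward one among the members. TUT4 (chr1:52408282-52553487, minus strand) stood at 54.0, 53.8 and 54.8 CPM in NC and at 36.2, 34.6 and 33.2 CPM in KD, a log2 difference of -0.64 (SE 0.049). In both genes each KD library lay outside the NC range. The ratio of TUT7 to TUT4 per exon base was 13.3, 12.3 and 13.3 in NC and 56.3, 55.8 and 54.7 in KD, 4.28-fold higher. This ratio within a library does not depend on the scaling. Its size rests on the exon lengths used, while the 4.28-fold difference between groups does not. On the leukocyte scale TUT7 kept a small upward difference (0.17, SE 0.049) and TUT4 stood at -1.93 (SE 0.048).

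DIS3L2 (chr2:231961245-232344350, plus strand), the exonuclease for uridylated RNA, was the least abundant tested member in NC, at 21.4, 17.9 and 18.8 CPM. It stood at 12.9, 12.3 and 11.4 CPM in KD, a log2 difference of -0.67 (SE 0.080). DICER1 (chr14:95086228-95158010, minus strand), the nuclease that releases mature microRNAs, went from 118, 113 and 118 CPM in NC to 102, 95.4 and 88.4 in KD, with a log2 difference of -0.29 (SE 0.046), the smallest of the members with TMM but not on the other scales. On the leukocyte scale DICER1 stood at -1.58 (SE 0.048) and DIS3L2 at -1.95 (SE 0.080). Neither gene overlapped between groups. Against partners in the same library, DICER1 per exon base was 0.482 ± 0.0123 times DROSHA in NC and 0.606 ± 0.0306 times in KD, and DIS3L2 was 0.0807 ± 0.00832 times DIS3 in NC and 0.109 ± 0.00319 times in KD.

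**Figure D3:**
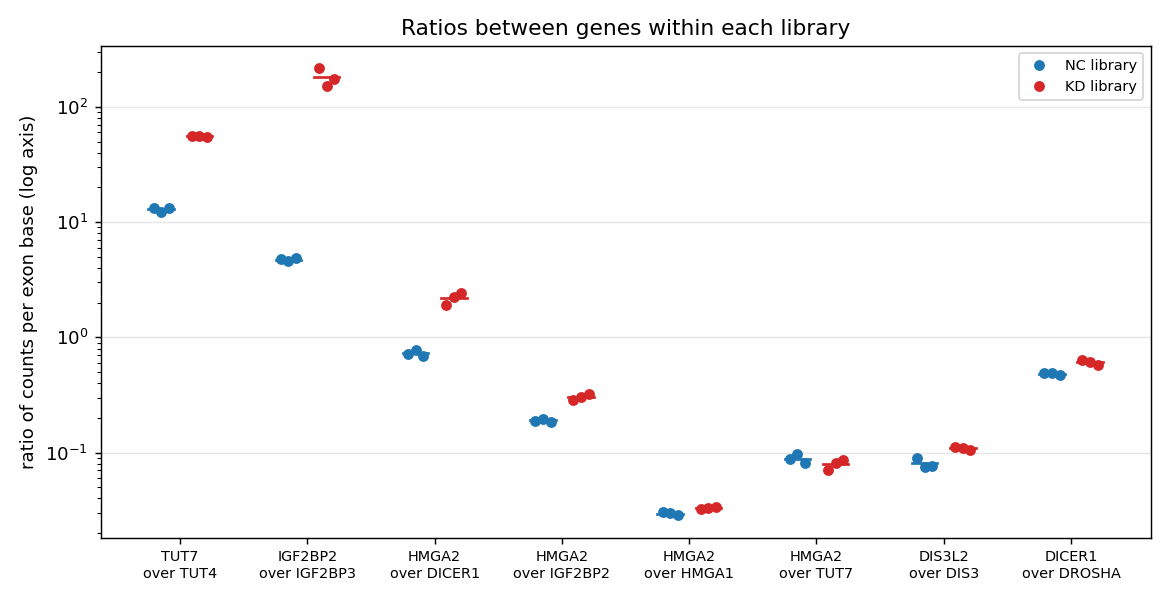
Ratios of counts per exon base between gene pairs within each library (log axis), 1 point per library and a bar at the mean of 3 NC or 3 KD libraries. TUT7 over TUT4 is 4.28-fold and IGF2BP2 over IGF2BP3 38.2-fold higher in KD, while HMGA2 over TUT7 overlaps between the groups.

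In order of TPM the NC libraries ran from TUT7 (126 ± 4.70) through IGF2BP2 (58.5 ± 1.46), LIN28B (42.3), IGF2BP1 (21.3 ± 0.921), DICER1 (15.3 ± 0.196), IGF2BP3 (12.4 ± 0.642), HMGA2 (11.2 ± 0.574) and TUT4 (9.73 ± 0.0898) to DIS3L2 (4.96 ± 0.442) and LIN28A. The ranges of IGF2BP3 (11.73 to 13.01) and HMGA2 (10.57 to 11.72) nearly met, and no other neighbours came as close. The exon lengths used merge all annotated exons of a gene: 15070 bases for HMGA2, 16199 for TUT4, 22151 for DICER1 and 6707 for TUT7. A gene whose main transcript is much shorter than that length stands too low, so ranks between genes are approximate. In KD the order was TUT7 (325 ± 16.3), IGF2BP2 (84.4 ± 2.30), HMGA2 (25.6, range 23.9 to 26.7), DICER1 (11.7 ± 0.741), TUT4 (5.84 ± 0.211) and DIS3L2 (2.94 ± 0.156), followed by IGF2BP3 (0.477 ± 0.0913), IGF2BP1 (0.0528 ± 0.0332) and the LIN28 genes. LIN28B and IGF2BP1 thus dropped from the upper ranks to the foot, which for LIN28B restates the choice of the list. HMGA2 moved from the seventh place to the third, as LIN28B, IGF2BP1 and IGF2BP3 fell below it and it passed DICER1. On the leukocyte scale HMGA2 itself stood at 0.01.

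By edgeR at the threshold of 0.05, 9 of the 9 members tested passed, 3 higher and 6 lower in KD, against 76.5% of the 21905 genes tested (36.2% higher, 40.3% lower), and as the members were chosen from this contrast nothing is read from that count. The CPM of the groups did not overlap for these 9, as for 78.0% of tested genes (36.7% higher, 41.3% lower). LIN28B, IGF2BP1 and IGF2BP3 were at least 16-fold lower, a size that 4.83% of tested genes reached (22.9% were at least 2-fold lower). HMGA2 and TUT7 were at least 2-fold higher, which 12.6% reached. The fall of LIN28B was fixed by the choice of the list, so nothing is read from these counts either. The median log2 fold change of all tested genes was -0.05 with TMM, -0.23 with library sizes alone and -1.33 on the leukocyte scale. There, 1 member (TUT7) passed as higher and 7 as lower. Of all 21905 tested genes, 548 passed as higher and 18703 as lower on that scale. Counts for the lists below are to be set against these numbers and the TMM shares above.

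**Figure D4:**
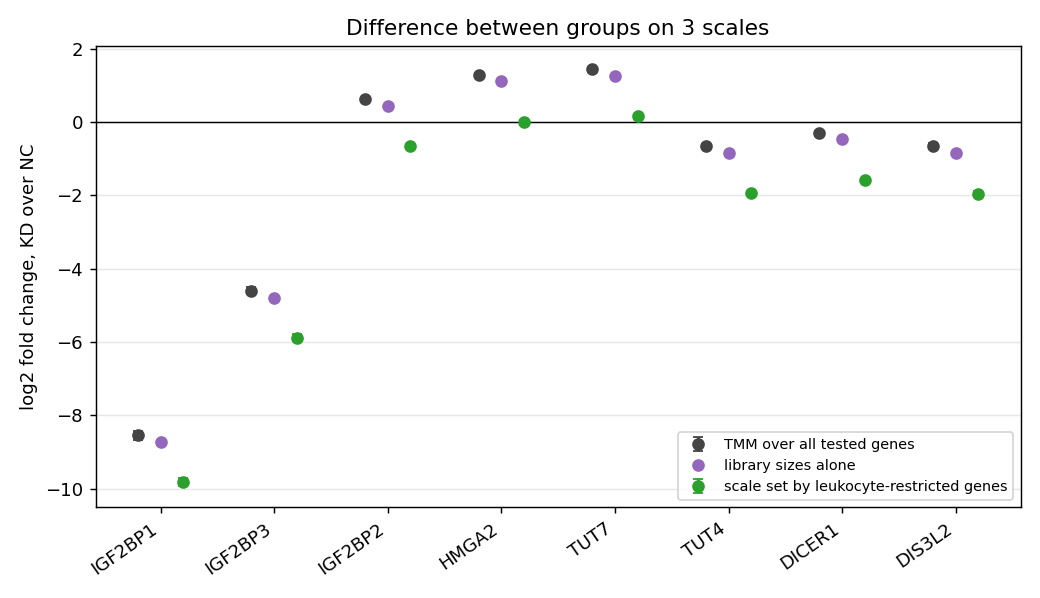
Log2 fold change, KD over NC, of 8 members on 3 scales (TMM, library sizes alone, and a scale set by 46 leukocyte-restricted genes), with bars of 1 SE for TMM and the leukocyte scale where larger than the point. IGF2BP1 and IGF2BP3 are below -4 on each scale, IGF2BP2 changes sign on the leukocyte scale, and HMGA2 is at 0.01 there.

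Some members share exon bases with other genes, and no source used here gives the strand setting of the counting, so such reads cannot be told apart. IGF2BP3 shares 1521 of its 8535 exon bases with MALSU1 on the opposite strand, a mitochondrial ribosome assembly gene that had 1119, 1088 and 1039 counts in NC and 475, 537 and 522 in KD (log2 fold change -0.96, SE 0.074, edgeR adjusted p = 1.32e-11). How many of the 48 to 70 counts of IGF2BP3 in KD are reads of MALSU1 was not tested. HMGA2 shares 384 bases with HMGA2-AS1, which had 122 to 138 counts in NC and 148 to 189 in KD (0.50, SE 0.14, adjusted p = 0.00287). DICER1 shares 80 with DICER1-AS1 (117, 117 and 143 counts in NC, 12, 10 and 4 in KD), LIN28B 181 with LIN28B-AS1 (2, 2 and 0 counts in NC, none in KD) and IGF2BP1 76 with ENSG00000251461, which had no count. DIS3L2 shares 559 bases with the same-strand pseudogene NRBF2P6 (-2.10, SE 0.25, adjusted p = 2.94e-08) and 51 with ENSG00000227033 (-0.53, SE 0.26, adjusted p = 0.0618). In NC each of these held fewer counts than the member it overlaps.

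Of 14 tested genes next to or antisense to the members, 8 were higher and 6 lower in KD, with a median log2 fold change of 0.31, and the leukocyte scale gave 0 higher and 13 lower. The methionine sulfoxide reductase MSRB3, a neighbour of HMGA2, fell from 12.1 ± 0.904 to 1.14 ± 0.0552 CPM (edgeR adjusted p = 9.04e-18), opposite to HMGA2 with TMM, while on the leukocyte scale HMGA2 stood at 0.01. Next to LIN28B the ubiquitin ligase HACE1 fell 1.89-fold (-0.91, SE 0.087, adjusted p = 7.26e-10). The SUMO protease SENP2, next to IGF2BP2, also fell (-0.59, SE 0.046, adjusted p = 2.09e-11). With TMM this was opposite to IGF2BP2, and on the leukocyte scale both were lower (-1.87 for SENP2 and -0.67 for IGF2BP2).

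The promoters of members found in the RefSeq table were searched for an E-box. That of IGF2BP1 was not analysed here. The E-box CACGTG, the same on both strands and a known MYC element, was found in 2548 of 35116 RefSeq promoters of 300 bases (7.26%). Among the 6 members with a promoter in the table, it was found once in a window of LIN28B (chr6:104956857-104957156, plus strand) and at 2 places in that of IGF2BP3 (chr7:23470442-23470741, minus strand). It was not in the other LIN28B window (chr6:104940715-104941014) nor in those of IGF2BP2, TUT7, DICER1 and DIS3L2. The 2 windows printed were picked because they hold the E-box, shown in capitals. The LIN28B window printed has 8 CG and 39.0% G and C, and its other window has 37 and 73.0%. Binding was not measured, and a part of the E-box in the levels was not tested.
LIN28B promoter: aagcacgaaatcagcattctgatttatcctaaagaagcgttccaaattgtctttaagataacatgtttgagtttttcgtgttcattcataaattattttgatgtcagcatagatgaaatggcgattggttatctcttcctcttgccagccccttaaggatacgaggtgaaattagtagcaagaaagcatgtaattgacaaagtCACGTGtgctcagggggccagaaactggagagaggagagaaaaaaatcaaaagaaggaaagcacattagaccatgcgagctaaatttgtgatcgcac
IGF2BP3 promoter: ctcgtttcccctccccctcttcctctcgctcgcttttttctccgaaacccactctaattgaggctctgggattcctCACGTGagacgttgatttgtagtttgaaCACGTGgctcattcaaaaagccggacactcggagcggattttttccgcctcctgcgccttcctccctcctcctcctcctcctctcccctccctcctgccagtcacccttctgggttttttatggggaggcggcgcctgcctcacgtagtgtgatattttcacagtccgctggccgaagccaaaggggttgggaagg

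The genes whose pattern over the 6 libraries was most like that of LIN28B were BEX2, ID4, IRS4, SMARCA1 and IGF2BP1, in that order. Likeness was the Euclidean distance of log2(CPM + 0.5), centred per gene, and ran from 0.193 for BEX2 to 0.977 for IGF2BP1. BEX2, ID4 and IRS4 are also in the list of neuronal and HEK293-type markers above. BEX2 stood at 161 ± 6.33 CPM in NC and 0.339 ± 0.0295 in KD, and IRS4, a signalling adaptor of the insulin and IGF receptors, at 164 ± 2.42 and 0.169 ± 0.0770. With 2 groups of 3 libraries, such a likeness reflects mainly the difference between the groups.

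Mature let-7 was not measured. The deposited table has rows for single let-7 genes, and none held over 26 counts in a library. Of 11 tested let-7 rows and host genes, 4 were higher, 1 was lower and 6 did not pass, with a median of 0.08. The host of let-7a-2, MIR100HG, rose from 0.466 ± 0.115 to 3.13 ± 0.423 CPM (2.73, SE 0.23, edgeR adjusted p = 7.36e-11), and it is the gene of this list still higher on the leukocyte scale. The let-7c host MIR99AHG fell from 2.32 ± 0.268 to 0.195 ± 0.141 CPM (-3.55, SE 0.32, adjusted p = 3.2e-10). MIRLET7IHG (0.75, SE 0.092, adjusted p = 7.12e-08) and HUWE1, the host of miR-98 and let-7f-2 (0.30, SE 0.045, adjusted p = 1.33e-06), were higher with TMM and turned to -0.54 and -0.99 on the leukocyte scale.

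Other proteins that bind let-7 precursors changed in both directions: of 10 tested, 4 were higher and 6 lower, with a median of -0.28. Musashi 1 (MSI1), a neural RNA-binding protein that works with LIN28 on let-7 precursors, had 298, 326 and 364 counts in NC and 0, 2 and 0 in KD, a ratio of 454 (exact 95% interval 125 to 3760). This interval pools the libraries and takes counts as independent, so it is too narrow if each count is 1 read of a pair. TRIM71 (LIN41), itself a let-7 target of embryonic cells, fell from 7.14 ± 0.544 to 0.237 ± 0.0586 CPM (-4.89, SE 0.20, edgeR adjusted p = 5.56e-17). HNRNPA1, which inhibits let-7a processing, fell by 1.10 on the log2 scale (adjusted p = 5.02e-17), and KHSRP, which promotes it, fell by 0.54 (adjusted p = 7.9e-12). All 10 were lower when the leukocyte genes set the scale, as were 18703 of all 21905 tested genes.

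In the core of microRNA processing, 2 of 13 genes were higher, 9 lower and 2 did not pass, with a median of -0.22. The nuclease DROSHA (-0.62, SE 0.045, edgeR adjusted p = 4.12e-12) and its partner DGCR8 (-0.46, SE 0.043, adjusted p = 5.57e-10) fell with DICER1. AGO2, the Argonaute that cuts targets, stood at 72.5 ± 0.939 CPM in NC and 170 ± 1.16 in KD (1.23, SE 0.040, adjusted p = 3.44e-19), and TNRC6B, a silencing partner, was higher too (0.43, SE 0.044, adjusted p = 2.89e-09). With the leukocyte genes as the scale, AGO2 stood at -0.06 and TNRC6B at -0.86, and 12 of 13 genes of the list were lower.

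Among other enzymes of the RNA 3′ end, 6 of 12 were higher and 5 lower, with a median of 0.03. The exosome nucleases DIS3 (-1.10, SE 0.041, edgeR adjusted p = 4.5e-18) and DIS3L (-1.69, SE 0.085, adjusted p = 2.68e-15), relatives of DIS3L2, fell by more than DIS3L2 with its -0.67. The deadenylase PARN fell by 0.72 (adjusted p = 9.62e-13). The poly(A) polymerase TENT2 was higher by 0.72 (SE 0.061, adjusted p = 7.29e-11) and stood at -0.56 on the leukocyte scale, where 12 of 12 were lower. The differences between DIS3L2 and its relatives were not tested.

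**Figure D5:**
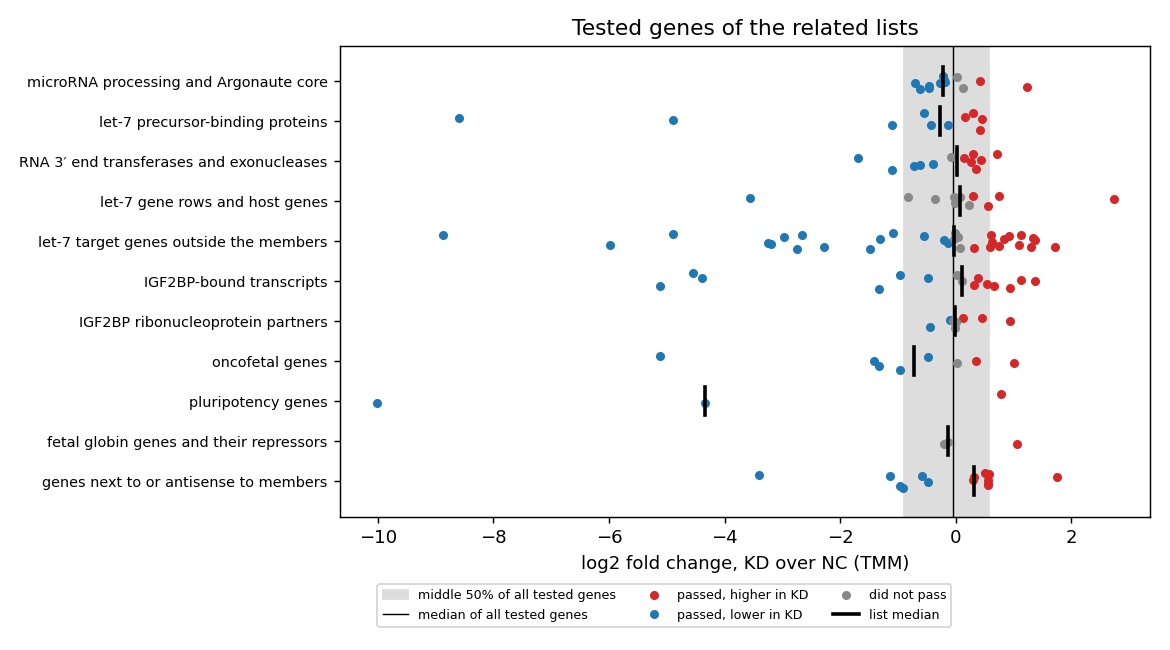
Log2 fold change (KD over NC, TMM) of each tested gene in the 11 related lists, 1 point per gene, colored by whether it passed the edgeR test, with a bar at each list median and the middle 50% of all tested genes shaded (values of genes with no count in KD, such as SOX2, are fitted ones and no bound). The medians of all lists but the pluripotency genes lie within the shaded band, and most lists hold genes moving both ways.

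Known let-7 target genes outside the members did not move one way: of 32 tested, 13 were higher, 15 lower and 4 did not pass, with a median of -0.02, close to the -0.05 of all genes. The smallest p-values belonged to falls. Cyclin D2 (CCND2) fell from 25.9 ± 1.12 to 0.407 ± 0.136 CPM (-5.98, SE 0.13, edgeR adjusted p = 3.94e-22), and the cell-cycle phosphatase CDC25A from 57.2 ± 0.981 to 9.04 ± 0.683 CPM (adjusted p = 6.72e-22). The mitotic kinase AURKB (-3.20, SE 0.090, adjusted p = 2.64e-20) and the DNA-binding protein ARID3B (-2.27, SE 0.074, adjusted p = 4.68e-19) fell as well. Of the 20 list genes with a CTACCTC site in their 3′ UTR, 8 were higher and 10 lower, and of the 12 without one, 5 were higher and 5 lower. The leukocyte scale left 0 of 32 higher and 27 lower, where 18703 of all 21905 tested genes were lower.

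The same was asked of the 14211 of 21905 tested genes that matched a gene with a 3′ UTR in the annotation, by their number of let-7 sites. Genes with 0 sites (12824) were higher in 39.0% and lower in 42.6%, and genes with 1 site (1239) in 38.3% and 43.9%. With 2 sites (119 genes) 48.7% were higher and 42.0% lower. With 3 or more (29 genes) 20.7% were higher and 62.1% lower, at a median of -0.99, and without the 3 members among them (26 genes) the values were 19.2%, 61.5% and -0.92. The shares therefore did not follow 1 direction with site number, and the last class is small. The median 3′ UTR length went from 968 bases with 0 sites to 5954 with 3 or more, so sites and length move together, and their parts were not tested.

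Transcripts known to be bound by IGF2BP proteins were higher in 7 and lower in 6 of 15 cases, with 2 not passing and a median of 0.11. The fetal growth factor IGF2, which gave the family its name, fell from 51.4 ± 7.99 to 1.47 ± 0.0531 CPM (-5.12, SE 0.13, edgeR adjusted p = 1.11e-16), and the laminin chain LAMB2 from 32.6 ± 1.68 to 1.54 ± 0.205 CPM (adjusted p = 3.35e-22). The hyaluronan receptor CD44 was higher (1.37, SE 0.041, adjusted p = 8.89e-20), as was HMGA1 (1.13, SE 0.043, adjusted p = 9.2e-18). Set to the leukocyte genes, CD44 stood at 0.08 and did not pass (adjusted p = 0.07), HMGA1 stood at -0.16, and 14 of 15 were lower and 0 higher.

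Partners that share ribonucleoprotein particles with IGF2BP1 moved both ways: 3 of 8 were higher, 2 lower and 3 did not pass, with a median of -0.01. The cold-shock protein YBX1 stood at 7890 ± 280 CPM in NC and 15090 ± 556 in KD (0.94, SE 0.051, edgeR adjusted p = 1.2e-14). SYNCRIP was higher by 0.45 (SE 0.044, adjusted p = 1.42e-09), and ELAVL1 (HuR), which stabilizes AU-rich mRNAs, fell by 0.45 (adjusted p = 1.71e-07). HNRNPU was higher by 0.13 (SE 0.048, adjusted p = 0.0208), a call lost in several other settings. With the leukocyte scale YBX1 stood at -0.35 and SYNCRIP at -0.84, and 8 of 8 were lower.

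Of 8 other oncofetal genes tested, 2 were higher, 5 lower and 1 did not pass, with a median of -0.72. Among all tested genes 36.2% were higher and 40.3% lower, and with so few genes nothing is read from the count. Besides IGF2, the fetal transcription factor PLAG1 (-1.32, SE 0.13, edgeR adjusted p = 2.12e-09) and the trophoblast glycoprotein TPBG (-0.47, SE 0.087, adjusted p = 3.12e-05) fell. The cancer-testis antigen PRAME rose from 18.4 ± 0.341 to 37.1 ± 0.725 CPM (SE 0.056 on the log2 scale, adjusted p = 2.15e-14) and stood at -0.28 on the leukocyte scale, where 8 of 8 were lower. AFP and DLK1 had no count in any library.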

How the data were processed

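The authors deposited 1 table of raw counts, whole numbers per gene for 61267 genes and 6 libraries. The submitters' processing notes name fastp 0.23.0 and GRCh38. The sources used here give no aligner, counter, annotation or strand setting. From the deposited counts, edgeR 4.0.16 (R 4.3.3) with TMM, filterByExpr and the robust quasi-likelihood test gave log2 fold changes for 21905 genes, with Benjamini-Hochberg adjustment and a two-sided threshold of 0.05. Standard errors (SE) are derived from the F statistic, as the absolute fold change (log2) over the root of F. CPM uses TMM-scaled library sizes, and TPM uses the exon length in the deposited table. That length merges all annotated exons of a gene, so levels, shares and ratios per exon base between genes are approximate. The KD over NC fold of such a ratio does not depend on it. The leukocyte scale is TMM over 46 leukocyte-restricted genes. Between 67.8% and 70.3% of counts from 1 to 20 were even, a pattern that counting each mate of a read pair gives; small counts may then hold fewer fragments than their number. Libraries of 1 group differed by more than sampling noise in each pair (chi-square over its degrees of freedom, 3.24 to 6.46).

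The members and lists were chosen with earlier results of these data known. Genes named are the members, METTL1 and WDR4, up to 4 per list with the smallest p, the 5 most like LIN28B, the markers, and genes sharing at least 50 exon bases with a member. WDR4, the METTL1 cofactor, had a log2 fold change of -0.61 (SE 0.12, adjusted p = 5.04e-05). Same-numbered libraries did not deviate together (r 0.03, 0.02 and -0.05), and the main test used no pairing. With 3 libraries per group, such correlations cannot exclude that the numbers pair libraries. Alternatives were DESeq2 1.42.0 and its size factors, limma-voom (limma 3.58.1), library sizes alone, the leukocyte scale, a mean of at least 1 CPM, no filter, no robust estimation, a replicate block, counts divided by 2, an adjusted p of 0.01, a test against a fold of 1.5, and leaving out each library. The steps were tested on simulated data. Figures used Python 3.11.15 and matplotlib 3.10.9.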

Additional observations from a re-analysis of the deposited data

How the results depend on the processing

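The members' counts of 3 higher and 6 lower in KD held in the alternatives with the following exceptions. On the leukocyte scale 1 member was higher and 7 lower, and against a fold of 1.5 the counts were 2 and 3. Over all genes, the leukocyte scale gave 548 higher and 18703 lower, against 7934 and 8824 with TMM, and 3939 and 5716 passed a fold of 1.5. Of all calls, 47.3% were higher with TMM, 37.5% with library sizes alone and 2.85% on the leukocyte scale. Without each library in turn, 7618 to 7787 genes were higher and 8667 to 8874 lower, and the members' counts did not change. On the leukocyte scale the log2 fold change turned for IGF2BP2 (-0.67), AGO2 (-0.058), TNRC6B (-0.86), TENT2 (-0.56), MIRLET7IHG (-0.54), HUWE1 (-0.99), HMGA1 (-0.16), YBX1 (-0.35), SYNCRIP (-0.84), HNRNPU (-1.16), PRAME (-0.28), KLF4 (-0.51), ZBTB7A (-0.23) and HMGA2-AS1 (-0.79), and with library sizes alone for HNRNPU (-0.062). Both scalings shift all genes down together by construction. METTL1 passed as lower with library sizes alone (-0.29, adjusted p = 0.00249) and on the leukocyte scale (-1.39, adjusted p = 8.78e-15). With the replicate number as a block, 7763 genes were higher and 8665 lower and the members stayed at 3 and 6; HNRNPU (0.13, adjusted p = 0.0587) no longer passed, and 1 rather than 2 IGF2BP partners were lower. Own numbers did not always correlate best. Depth limits LIN28A and the single let-7 rows, whose counts were too low for the test or gave wide errors.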

Other observations

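Pluripotency genes, which share expression in embryonic stem cells with LIN28A, were mostly at or near 0. Of 9, only 3 passed the filter on low counts. POU5F1 did not pass it, with 63 counts over all NC libraries and 2 over all KD libraries. The DNA methyltransferase DNMT3B fell from 12.2 ± 0.198 to 0.602 ± 0.0547 CPM (edgeR adjusted p = 4.38e-19). SOX2, a transcription factor of stem and neural cells, had 136, 110 and 158 counts in NC and none in KD, at least 124-fold lower with the KD group set at 3 counts. KLF4, also a monocyte factor, was higher by 0.78 (SE 0.12, adjusted p = 1.48e-06) and stood at -0.51 on the leukocyte scale.

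Fetal globin is known to be raised by LIN28B in red cell precursors. Of 7 globin genes and repressors, 3 were tested. The globin repressor ZBTB7A was higher by 1.06 (SE 0.048, edgeR adjusted p = 3.13e-16) and stood at -0.23 on the leukocyte scale. MYB (-0.14, SE 0.080, adjusted p = 0.121) and BCL11A (-0.20, SE 0.14, adjusted p = 0.196) did not pass. MYB passed without KD replicate 2 (-0.21, adjusted p = 0.0382).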
